A study of Mus musculus with 40 samples.

Results

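Glucocorticoid pathway genes were followed through the differentiation of white preadipocytes by the H3K27ac peaks at their loci: the receptor gene Nr3c1, the hormone-activating enzyme gene Hsd11b1, and the receptor targets Fkbp5, Tsc22d3, Sgk1, Dusp1, Errfi1 and Glul. The 8 genes were chosen by name for their known place in this pathway, and each was measured over its GENCODE span in mm10 with 10 kb added upstream. They are 8 of 21911 protein-coding genes, and all 8 were among the 15571 genes with a peak in at least 3 of the 24 libraries that were tested. Across day 0 to day 3, the interval in which the hormone mix was added, the acetylated length rose at Fkbp5 (by 21.7 kb), Errfi1 (by 6.80 kb) and Tsc22d3 (by 2.36 kb), and none of the 8 members passed the test for a fall. Of all tested genes, 1.58% rose and 29.6% fell across that interval. The Fkbp5 mean at days 0, 3, 6 and 9 was 15.0, 36.7, 42.5 and 59.0 kb, and 0.252, 0.936, 1.00 and 0.983 kb per Mb. Over all 4 days, none of the 8 differed between the genotypes in kb past the threshold. By other measures 1 member each was called. In the strongest peak's fold Sgk1 was lower in the knockout, as were 5.00% of all tested genes. Per Mb of covered length Fkbp5 was higher in it, as were 10.1% of all tested genes.

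Glucocorticoids cross the cell membrane and bind the glucocorticoid receptor, a transcription factor that chaperones hold in the cytoplasm until the hormone arrives. The bound receptor enters the nucleus and binds palindromic DNA elements, mostly in enhancers, where coactivators with acetyltransferase activity acetylate histone H3 at lysine 27. In fat precursors a synthetic glucocorticoid, dexamethasone, is a standard part of the mix that starts adipogenesis, and mature fat cells stay responsive to the hormone.

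H3K27ac was profiled by ChIP-seq in preadipocytes from inguinal white adipose tissue of C57BL/6 mice, 8 to 12 weeks old. Wild type (WT) cells and cells of mice homozygous for the loss of both nucleosome-binding proteins (Hmgn1-/- and Hmgn2-/-, called DKO) were taken as preadipocytes (day 0) and at days 3, 6 and 9 of an induced differentiation toward brown-like adipocytes. Each of the 8 groups had 3 libraries. Both genotypes received the same media: a differentiation medium with 5 µM dexamethasone, 0.5 mM IBMX, 1 µM rosiglitazone, 0.5 µg/ml insulin and 1 nM T3 for 4 days, then a maintenance medium with 0.5 µg/ml insulin and 1 nM T3 for 4 more days. By that schedule day 3 is the one sampled day that lies in the dexamethasone medium, although the labels do not give the medium of each sampled day, and day 9 lies past the 4 and 4 days of the schedule. Dexamethasone, IBMX and rosiglitazone were added and withdrawn together and the cells differentiated meanwhile, so an effect of the hormone cannot be told apart from these. No group received the mix without the hormone. The DKO mice carried both losses before the cells were isolated, so the starting cells may already have differed. The libraries of a group are biological replicates by the study's description, how many animals stand behind each is not given in the sources used here, and p-values measure the spread between these libraries.

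The 24 peak lists held 2194886 peaks in all, from 47448 to 115923 per library, and covered 20.7 to 96.4 Mb of the genome. Mean covered length at days 0, 3, 6 and 9 was 58.9, 39.8, 44.1 and 60.0 Mb, and at day 6 it was 30.8 ± 8.76 Mb (SD, n = 3) in DKO against 57.5 ± 2.60 Mb (SD, n = 3) in WT. Values in a gene window are therefore given as kb under peaks and, where the total moves with them, also as kb per Mb of covered length in the same library. WT day 3 replicate 3 reached a fold of 159 where the other libraries reached 33.2 to 60.6, DKO day 0 replicate 2 had a median peak width of 1076 bases against 313 to 376 in the others, and DKO day 6 replicate 3 had the fewest peaks. Fold is the enrichment of a peak's summit over local background, and q rank is the percentage of peaks in the same library with an equal or lower −log10 q. In bulk cells, fewer cells with the mark and less of the mark per cell cannot be told apart. As a check of the labels, Hmgn2 had no peak in any of the 12 DKO libraries and 0.781 to 1.80 kb in the WT libraries, while Hmgn1 had peaks in both genotypes. In each group 5 of 6 preadipocyte and stromal genes had a peak in all 3 libraries, and the summed length over the 6 ran from 33.6 to 59.2 kb at day 0, from 21.85 to 38.1 kb at day 3 and from 11.7 to 41.6 kb at days 6 and 9, with Dlk1 at 0 in all 3 libraries of 5 of the 8 groups. The summed length over 6 adipocyte genes ran from 11.5 to 30.2 kb at day 0, from 14.1 to 29.2 kb at day 3 and from 48.0 to 85.5 kb at days 6 and 9, and all 6 had a peak in each library of days 6 and 9. Over 4 macrophage and leukocyte genes the sum ran from 20.7 to 49.0 kb at day 0, from 10.6 to 20.2 kb at day 3 and from 6.34 to 11.8 kb at days 6 and 9. Over 4 endothelial genes it ran from 7.34 to 18.1 kb at day 0, from 1.82 to 4.88 kb at day 3 and from 1.17 to 6.58 kb at days 6 and 9. Over 4 genes of brown-like cells it ran from 0.695 to 2.66 kb at day 0, from 0.578 to 1.595 kb at day 3 and from 1.51 to 7.32 kb at days 6 and 9, and Ucp1, their defining gene, had a peak in 1 library, of DKO day 6. The part of these other cell types in the values below was not tested.

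The receptor's binding element was searched as GNACANNNTGTNC, a palindrome with 8 fixed bases, which reads the same on both strands. A full element was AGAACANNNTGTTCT, and every full match is also a match of the shorter form. Overlapping peaks of the 24 libraries formed 169358 merged regions, of which 203 lay in the 8 windows. The element lay in the 300 bases around the summit in 3 of the 203 (1.48%) and in 1047 of all regions (0.618%). Over whole regions it lay in 19 of 203 (9.36%) and in 3203 of all (1.89%), but the 19 had a median length of 2.13 kb against 0.428 kb for all regions, and longer regions hold more matches. A match describes letters in the DNA and is not evidence of receptor binding. The stretches below, read from mm10 on the plus strand, are the 8 matches nearest to the full element among those in regions with a peak in all 24 libraries (the ranking by nearness was set after the matches were seen). They are shown because they place the receptor's motif within the acetylated regions described next. Capitals mark the 13 bases of the match.

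Fkbp5, region deep in the gene, full element, chr17:28420278-28420378: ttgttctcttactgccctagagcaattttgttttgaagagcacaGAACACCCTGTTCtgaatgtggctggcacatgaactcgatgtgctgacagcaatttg
Fkbp5, upstream region, first element, chr17:28522084-28522184: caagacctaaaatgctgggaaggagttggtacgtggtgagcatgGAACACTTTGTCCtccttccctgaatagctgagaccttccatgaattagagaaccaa
Fkbp5, upstream region, second element, chr17:28523134-28523234: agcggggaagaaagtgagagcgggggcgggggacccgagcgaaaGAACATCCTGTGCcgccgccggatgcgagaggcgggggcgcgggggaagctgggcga
Fkbp5, region over the 5′ end, chr17:28513859-28513959: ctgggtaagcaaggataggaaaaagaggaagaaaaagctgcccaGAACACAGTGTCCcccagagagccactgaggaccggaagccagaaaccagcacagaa
Sgk1, promoter region, full element, chr10:21993658-21993758: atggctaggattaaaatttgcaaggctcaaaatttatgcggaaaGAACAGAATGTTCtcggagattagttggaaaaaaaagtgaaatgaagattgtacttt
Dusp1, upstream region, first element, chr17:26531943-26532043: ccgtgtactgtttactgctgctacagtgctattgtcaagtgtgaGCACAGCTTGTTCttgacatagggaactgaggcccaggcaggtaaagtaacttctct
Dusp1, upstream region, second element, chr17:26535285-26535385: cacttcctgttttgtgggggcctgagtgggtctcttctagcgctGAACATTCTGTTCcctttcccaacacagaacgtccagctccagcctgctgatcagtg
Glul, region over the start, chr1:153901582-153901682: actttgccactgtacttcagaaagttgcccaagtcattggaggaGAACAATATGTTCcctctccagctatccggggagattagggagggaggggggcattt

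Nr3c1 encodes the glucocorticoid receptor itself and lies on chromosome 18 (39410545 to 39519421, minus strand). At day 0 its acetylated length was 7.04, 10.3 and 7.39 kb in the WT libraries and 6.90, 17.0 and 9.43 kb in the DKO libraries. The day 3 values were 8.28, 9.87 and 5.19 kb for WT and 5.18, 6.33 and 4.88 kb for DKO. Those of day 6 were 12.25, 12.9 and 12.8 kb for WT and 11.6, 11.5 and 9.15 kb for DKO, and those of day 9 were 9.66, 11.0 and 11.2 kb for WT and 12.4, 11.95 and 11.97 kb for DKO. Day 3 held the lowest values and overlapped day 0, and only its WT value of 9.87 kb reached the range of days 6 and 9. Day 3 was lower than the mean of the other days by 4.29 kb (exact permutation test within genotype, two-sided, p = 0.000826, adjusted p = 0.0377, Benjamini-Hochberg over 15571 genes). Nr3c1 was 1 of 8 members to pass in this comparison, in which 3.29% of all tested genes fell and 0.231% rose. The total covered length was also lowest at day 3, and on the scale of kb per Mb the difference of −0.0489 did not pass (exact p = 0.108, adjusted p = 0.293). The call was also lost when any 1 of 12 libraries was left out and with the replicate number as a block (adjusted p = 0.0698, exact permutation test), and with 250 bp either side of each summit in place of whole peaks the direction turned (+0.917 kb, exact p = 0.321). The step from day 0 to day 3 alone was −3.06 kb and did not pass (exact p = 0.115).

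Within the Nr3c1 locus the broad promoter region (39480573 to 39492213) carried a peak in all 24 libraries, with a median fold of 22.2, 17.6, 19.5 and 22.4 at days 0, 3, 6 and 9. An intronic region just downstream of it (39479172 to 39480288) had a peak in 0 of 6 libraries at day 0, in 3 at day 3 (all WT) and in 6 of 6 at days 6 and 9, with a median fold of 8.40 at day 6. The region at the outermost annotated start (39519368 to 39520017) went the other way, with a peak in 6 of 6 libraries at day 0 and in 0 of the 18 later ones. An intronic region further in (39458616 to 39462799) had a peak in 6 of 6 libraries at day 0 and in 1, 2 and 0 of 6 at days 3, 6 and 9. Of all merged regions 1.22% had a peak in every day 0 library and in no day 3 library, and the region at the outermost start was the only one of the 203 in the 8 windows to do so. None of the 16 Nr3c1 regions held the element.

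**Figure D1:**
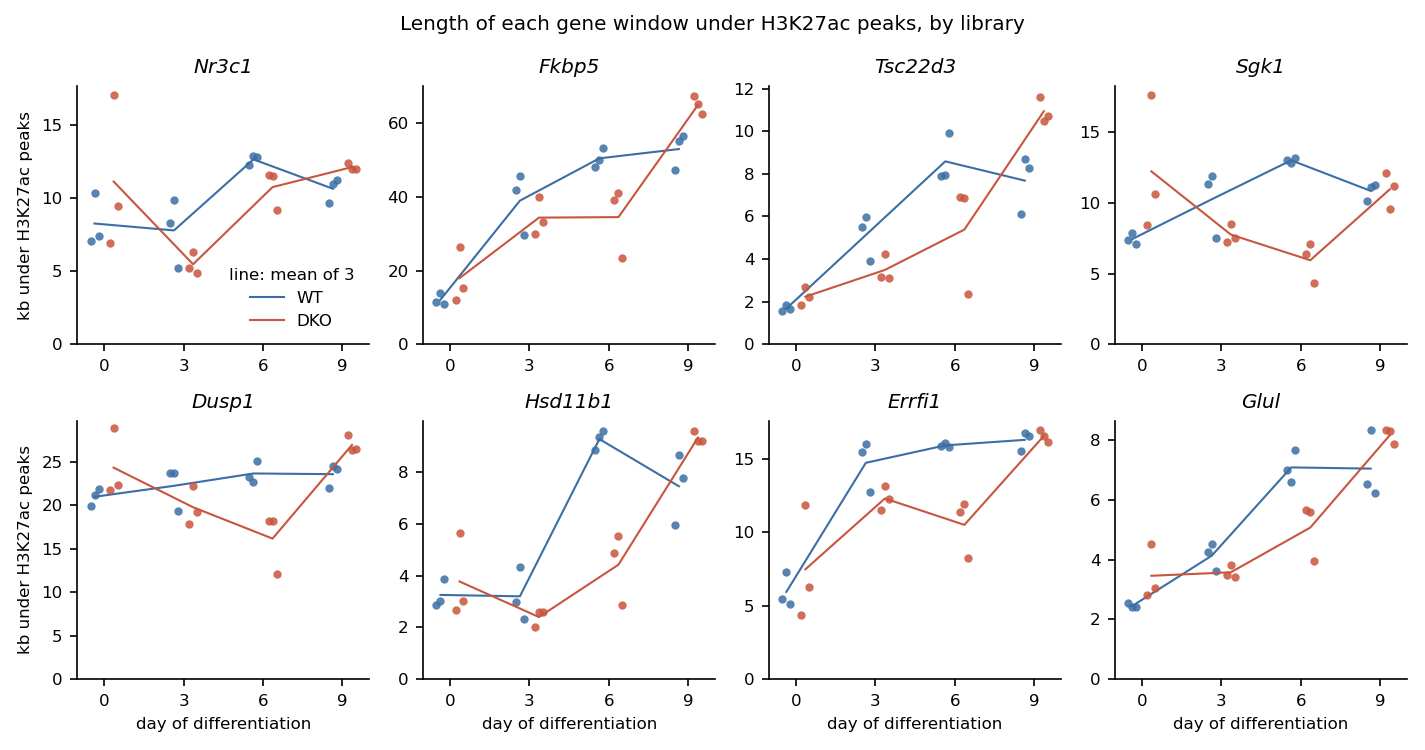
Length under H3K27ac peaks (kb, linear axis from 0) in the window of each of the 8 genes, by day, with 1 point per library and a line through the means of 3, in blue for WT and red for DKO. Fkbp5 runs from 10.9 to 26.4 kb at day 0 and from 29.5 to 45.6 kb at day 3 with no overlap, while Sgk1 and Dusp1 overlap between those days.

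Fkbp5 encodes FKBP51, a cochaperone that lowers the receptor's affinity for hormone and so closes a negative feedback loop; it lies on chromosome 17 (28399094 to 28517527, minus strand). Its window also holds non-coding RNA genes, among them the lincRNA genes Gm20109 and E230001N04Rik. Its acetylated length on day 0 was 11.5, 13.9 and 10.9 kb for WT and 12.1, 26.4 and 15.4 kb for DKO. On day 3 it was 41.8, 45.6 and 29.5 kb for WT and 29.99, 39.97 and 33.2 kb for DKO. Every day 3 library lay above every day 0 library, and the 26.4 kb belonged to the library with the wide peaks. On day 6 the WT libraries held 48.1, 50.04 and 53.3 kb and the DKO libraries 39.1, 41.1 and 23.3 kb, and on day 9 the WT libraries held 47.4, 55.1 and 56.5 kb and the DKO libraries 67.3, 65.1 and 62.4 kb. The mean was 2.44 times the day 0 mean at day 3 (3.225 in WT and 1.92 in DKO) and 3.93 times at day 9 (4.38 in WT and 3.62 in DKO). The step from day 0 to day 3 was +21.7 kb (exact permutation test, p = 0.005, the smallest that 400 relabellings allow, adjusted p = 0.0225), in an interval in which 1.58% of all tested genes rose and 29.6% fell. The steps after it did not pass, at +5.81 kb to day 6 (exact p = 0.21) and +16.5 kb to day 9 (exact p = 0.025, adjusted p = 0.104). Per Mb of covered length the locus held 0.252, 0.936, 1.00 and 0.983 kb at days 0, 3, 6 and 9.

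Peak strength at Fkbp5 was higher at day 3 than at day 0, as its length was, but the measures parted later. The highest fold in the window was 10.7 to 12.9 over the 6 libraries of day 0 and 18.1 to 24.4 over those of day 3. Later it was 15.0 to 20.9 (day 6) and 26.7 to 36.8 (day 9). The q rank of its best peak was 86.0 to 90.6% at day 0 and 97.9 to 99.3% at day 3, a difference of 10.2 points that passed (exact p = 0.005, adjusted p = 0.0413), as did 1.85% of all tested genes upward and 10.2% downward on this measure. The difference in highest fold, +9.92, did not pass (exact permutation test, p = 0.005, adjusted p = 0.0578). On that measure 0 of 15571 genes passed across this step, although this p was the smallest that 400 relabellings allow. From day 3 to day 6 the length was higher by 5.81 kb while the highest fold differed by −2.91 (exact p = 0.035, adjusted p = 0.182) and the q rank by −1.87 points (exact p = 0.01, adjusted p = 0.105). At day 9 the DKO mean was the higher in length (65.0 against 53.0 kb) and the lower in highest fold (28.9 against 34.5).

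The change at Fkbp5 was not even along the gene. The region just before the outermost start (chr17:28518247-28519720) had no peak in the 3 WT libraries of day 0 and folds of 5.04, 2.98 and 6.68 in those of DKO. Its day 3 folds were 17.2, 20.3 and 12.01 for WT and 18.1, 21.7 and 21.3 for DKO, and its day 9 folds were 31.4, 31.8 and 36.8 for WT and 21.3, 30.1 and 20 for DKO. Every day 3 value lay above every day 0 value, and at day 9 every WT value lay above every DKO value. This is 1 of 77 regions of the window, and how many of all regions parted in these ways was not counted. Over the 4 days the highest fold in the gene window was called lower in DKO at 5.00% of all tested genes and higher at 0.283%. These shares are of whole windows over 4 days, so they do not tell how common such a parting of regions was on a day. The upstream region (chr17:28519833-28526333), with 2 of the elements printed above, had a median fold of 6.00, 16.3, 17.5 and 26.0 at days 0, 3, 6 and 9. The region over the 5′ end (chr17:28510004-28518142), with 1 printed element, had 6.70, 18.3, 16.7 and 21.3. The region deep in the gene (chr17:28415480-28426285), 65.3 kb in from the RefSeq start and with the full element, had 10.2, 17.6, 16.3 and 19.2. The region at the RefSeq start (chr17:28484374-28485870) had 6.97, 11.0, 10.1 and 17.2. By contrast, an intronic region with a peak in all 24 libraries (chr17:28461870-28465244) had 10, 9.26, 7.14 and 10.9, and its neighbour (chr17:28465746-28467198) had 5.61, 6.71, 5.53 and 6.76. These regions share libraries and a locus and are described without a test. Of the 20 Fkbp5 regions with a peak in at least 5 of 6 libraries at day 3, 7 held the element somewhere in their length. Of all merged regions that met the same rule, 1613 of 28685 held it. Longer regions hold more matches, and regions of equal length were not compared.

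Of the 203 regions, 3 had no peak in the 6 libraries of day 0 and a peak in at least 5 of 6 at day 3, and all 3 lay in Fkbp5, which also holds 77 of the 203 regions. Of all merged regions, 0.705% met that rule. The clearest was an intronic region next to the RefSeq start (chr17:28482519-28484324), with day 3 folds of 7.80, 7.77 and 5.84 for WT and 5.40, 8.35 and 5.67 for DKO and a peak in all 12 libraries of days 6 and 9. The others, chr17:28434370-28436551 and chr17:28431435-28433723, had median folds of 4.73 at day 3. The first of these kept a peak in 5 of 6 libraries at days 6 and 9, and the second had one in 3 and 6 of 6. None of the 3 held the element around its summit, against 13 of the 1194 regions gained genome-wide (1.09%) and 0.615% of the rest. A further region with the full element (chr17:28441313-28443123) had a peak in 0, 2, 6 and 6 of 6 libraries at days 0, 3, 6 and 9. No region of the 8 windows had peaks at day 3 and at no other day by these rules, and 21 regions of the genome did.

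**Figure D2:**
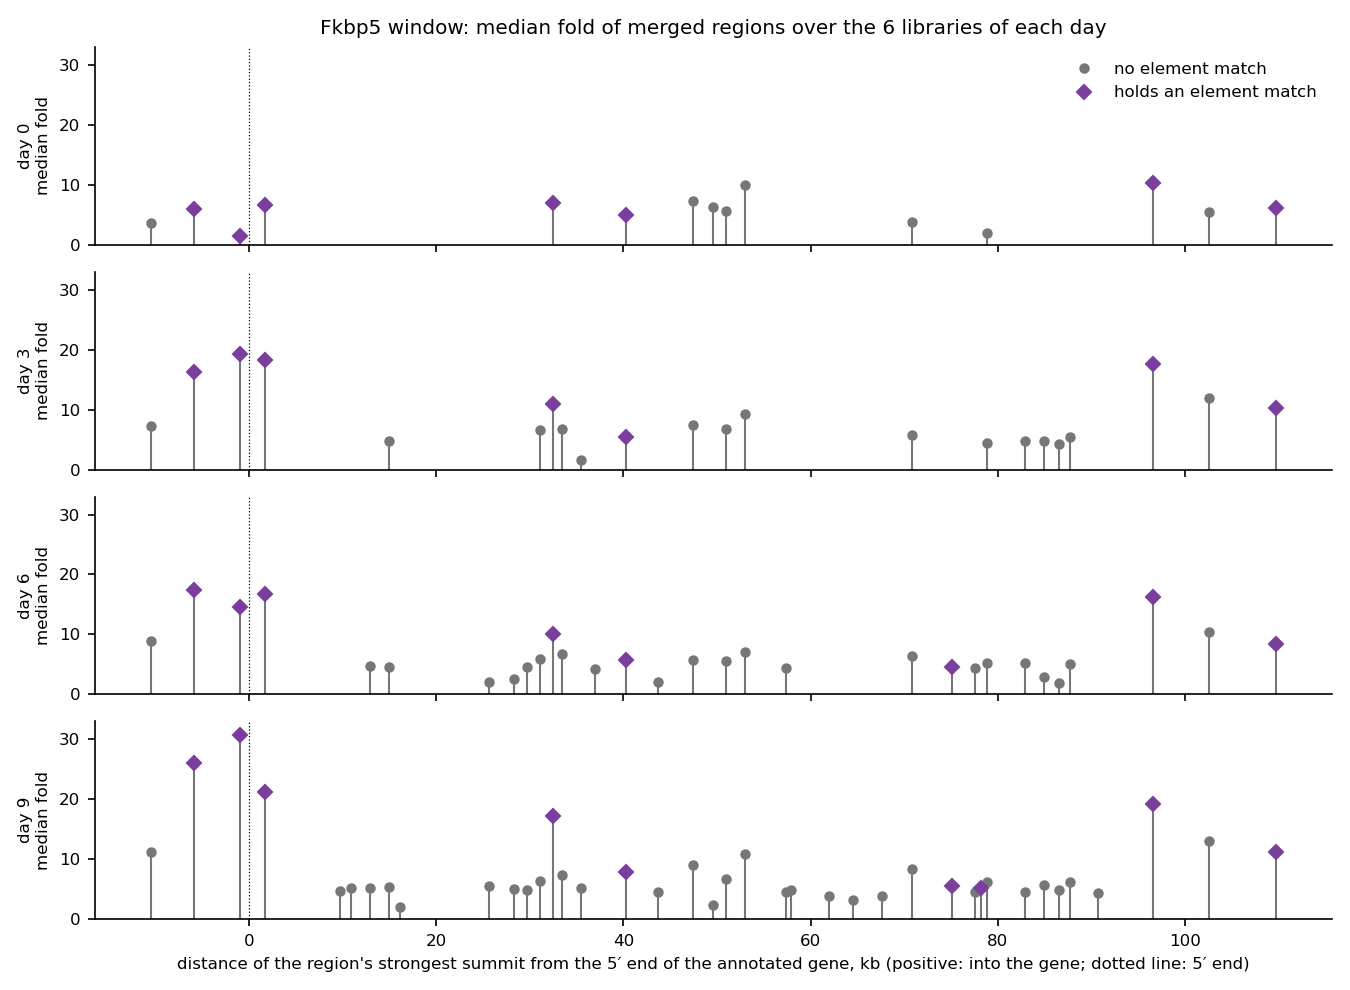
Median fold over the 6 libraries of a day (linear axis from 0) for each merged region of the Fkbp5 window with a median above 0, against the distance of its summit from the 5′ end of the annotated gene (kb, positive into the gene), with 1 panel per day; diamonds hold a match of the element. The region just before the 5′ end has a median of 1.49 at day 0, 19.2 at day 3 and 30.7 at day 9, while the intronic region at 10 on day 0 has 9.26 on day 3.

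Tsc22d3 encodes GILZ, a leucine zipper protein that carries much of the hormone's anti-inflammatory action; it lies on the X chromosome (140539528 to 140600659, minus strand). On day 0 the WT libraries held 1.55, 1.84 and 1.64 kb and the DKO libraries 1.82, 2.67 and 2.21 kb. On day 3 the WT libraries held 5.53, 5.97 and 3.89 kb and the DKO libraries 3.15, 4.22 and 3.10 kb. All 6 libraries of day 3 lay above all 6 of day 0. The later values were 7.91, 7.93 and 9.92 kb (WT) and 6.93, 6.86 and 2.36 kb (DKO) on day 6, and 6.10, 8.69 and 8.26 kb (WT) and 11.6, 10.5 and 10.7 kb (DKO) on day 9. Tsc22d3 rose by 2.36 kb from day 0 to day 3 (exact permutation test, p = 0.005, adjusted p = 0.0225). Fold gave another picture: the region at a RefSeq start (chrX:140537971-140544614) had a median fold of 13.7, 14.8, 14.9 and 15.9 at days 0, 3, 6 and 9, and the window's highest fold moved by +0.519 from day 0 to day 3 (exact p = 0.755). The window had 1 region with a peak in at least 5 of 6 libraries at days 0 and 3 and 7 such regions at days 6 and 9.

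Errfi1 encodes MIG-6, an inhibitor of the EGF receptor, and lies on chromosome 4 (150853919 to 150868892, plus strand). Its day 0 lengths were 5.45, 7.26 and 5.09 kb (WT) and 4.34, 11.8 and 6.25 kb (DKO), and its day 3 lengths were 15.4, 15.99 and 12.7 kb (WT) and 11.5, 13.2 and 12.2 kb (DKO). The days overlapped only through the wide-peak library of DKO day 0, at 11.8 kb. Its day 6 lengths were 15.9, 16.04 and 15.8 kb (WT) and 11.35, 11.9 and 8.25 kb (DKO), and the 6 libraries of day 9 ran from 15.5 to 16.9 kb. Errfi1 rose by 6.80 kb from day 0 to day 3 (exact permutation test, p = 0.01, adjusted p = 0.0365), and its highest fold differed by +3.15 (exact p = 0.045, adjusted p = 0.191). A region 3.45 kb upstream of the RefSeq start (chr4:150849218-150851400) had a peak in 1, 5, 5 and 6 of 6 libraries at days 0, 3, 6 and 9. The region over the later exons (chr4:150861849-150865842) had a median fold of 5.89, 9.93, 9.95 and 12.3, while the promoter region (chr4:150851448-150854949) had 7.20, 7.77, 8.05 and 11.6.

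These 3 calls did not hold in every setting. Without any 1 of the 3 DKO day 3 libraries no member passed (adjusted p from 0.0535 to 0.0754 for Fkbp5, Tsc22d3 and Errfi1), and none passed with the 20000 strongest peaks per library. With 250 bp either side of summits none passed and the Errfi1 difference turned to −0.1125 kb (exact p = 0.895), and by q rank that of Tsc22d3 turned to −0.615 points (exact p = 0.81). Per Mb of covered length Fkbp5, Tsc22d3 and Errfi1 rose and so did Sgk1 (+0.0636), Dusp1 (+0.144) and Glul (+0.0490 kb per Mb, each adjusted p = 0.0198 by the exact test), while the split over all tested genes went from 246 higher and 4612 lower in kb to 2953 higher and 2507 lower per Mb (19.0% and 16.1%).

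Sgk1 and Dusp1 carried long acetylated stretches already at day 0. Sgk1 encodes a kinase that regulates ion transport and cell survival and lies on chromosome 10 (21882184 to 21999903, plus strand). Its length was 7.08 to 17.6 kb at day 0 (median 8.15), 7.25 to 11.9 kb at day 3 (8.03), 4.34 to 13.2 kb at day 6 (9.95) and 9.56 to 12.1 kb at day 9 (11.2). The step from day 0 to day 3 was −0.832 kb (exact permutation test, p = 0.795), and the q rank of its best peak was between 97.1 and 99.9% in all 24 libraries. That peak's region (chr10:21990857-21999408) spans several RefSeq starts of Sgk1, holds the full Sgk1 element printed above, and had a median fold of 22.0, 24.2, 21.0 and 25.4. A second intronic region (chr10:21973159-21974572) had a peak in 3 of 6 libraries at day 0 and in 6 of 6 at each later day, with a median fold of 1.92, 6.14, 6.05 and 5.73. Of the 15 promoters listed by RefSeq for the members other than Nr3c1 (250 bases before to 50 after a start), only 1 Sgk1 promoter (chr10:21993640-21993939) held the element, which 156 of 32851 RefSeq promoters hold (0.475%).

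Dusp1 encodes a phosphatase that switches off MAP kinases and lies on chromosome 17 (26505590 to 26562128, minus strand). Its length was 19.9 to 28.8 kb at day 0 (median 21.8), 17.9 to 23.7 kb at day 3 (20.7), 12.1 to 25.1 kb at day 6 (20.4) and 22.0 to 28.1 kb at day 9 (25.4). The step from day 0 to day 3 was −1.65 kb (exact permutation test, p = 0.375), and it was +0.753 kb (exact p = 0.205) with the shorter RefSeq gene span, which leaves out much of the upstream stretch. The region at the RefSeq start (chr17:26501869-26516146) had a median fold of 22.4, 18.9, 19.7 and 24.9. The region with both printed Dusp1 elements (chr17:26527395-26538953) had 16.4, 13.3, 12.1 and 15.1. It is called upstream because it lies upstream of the RefSeq start, but it lies inside the longer GENCODE span. Another strong region of the window (chr17:26560260-26563834) lies 0.45 kb from the start of another gene, Ergic1.

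**Figure D3:**
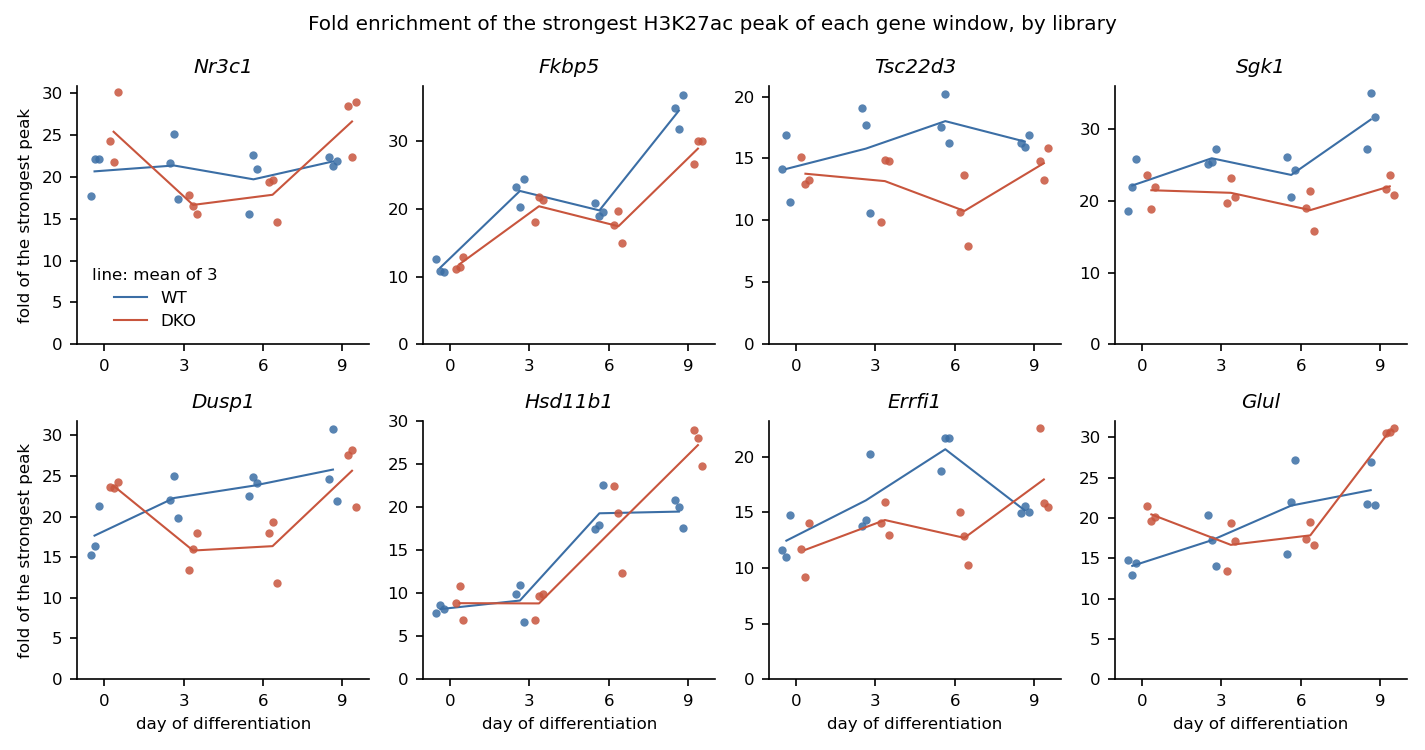
Highest fold of any peak in the window of each of the 8 genes (fold over local background, linear axis from 0), by day, with 1 point per library and a line through the means of 3. Fkbp5 goes from 10.7 to 12.9 at day 0 to between 26.7 and 36.8 at day 9, while Tsc22d3 moves by +0.519 from day 0 to day 3.

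Hsd11b1 encodes 11β-hydroxysteroid dehydrogenase type 1, which regenerates active glucocorticoid from its inactive form inside fat cells; it lies on chromosome 1 (193221634 to 193264075, minus strand). Its day 0 lengths were 2.86, 3.02 and 3.87 kb (WT) and 2.65, 5.63 and 3.03 kb (DKO), and its day 3 lengths were 2.96, 4.33 and 2.30 kb (WT) and 2.02, 2.58 and 2.59 kb (DKO). They were 8.87, 9.35 and 9.60 kb (WT) and 4.86, 5.54 and 2.85 kb (DKO) on day 6, and 5.95, 8.64 and 7.76 kb (WT) and 9.57, 9.22 and 9.20 kb (DKO) on day 9. Day 3 was low and days 6 and 9 were high, with DKO day 6 replicate 3 inside the day 3 range. The step from day 3 to day 6 was +4.05 kb (exact permutation test, p = 0.005, adjusted p = 0.0571) and did not pass, as no gene of the 15571 did across that step at an adjusted p under 0.05. Day 3 against the other days, at −3.45 kb, did not pass either (exact p = 0.00796, adjusted p = 0.0765).

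The strongest signal in the Hsd11b1 window lay near the start of a neighbour. The region with the highest fold from day 6 on (chr1:193271404-193273912) lies 0.431 kb from the start of G0s2, an inhibitor of fat breakdown, and had a median fold of 8.35, 8.17, 18.6 and 22.8 at days 0, 3, 6 and 9. The region at the RefSeq start of Hsd11b1 (chr1:193241363-193244028) had 7.07, 7.21, 8.15 and 8.17. At that start the 3 DKO folds were 7.61, 5.50 and no peak at day 6 and 7.49, 4.36 and 6.32 at day 9, against 9.20, 8.69 and 10.6 and then 10.6, 10.2 and 8.85 in WT, so each DKO value lay below each WT value on both days (a comparison chosen after its values were seen). The same was so on day 0, and the groups overlapped on day 3. How many of all regions parted in this way was not counted, and the DKO libraries of day 6 covered 30.8 Mb against 57.5 Mb in WT. Over the 4 days the highest fold in the gene window was called lower in DKO at 5.00% of all tested genes and higher at 0.283%. That share is of whole windows over 4 days and not of regions on a day. Whether the parting at this region was unusual is therefore not known. With the bases within 2 kb of other genes' starts left out, the step from day 3 to day 6 was +3.33 kb (exact permutation test, p = 0.015, adjusted p = 0.0993), so most of the added length lay outside the starts of other genes.

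**Figure D4:**
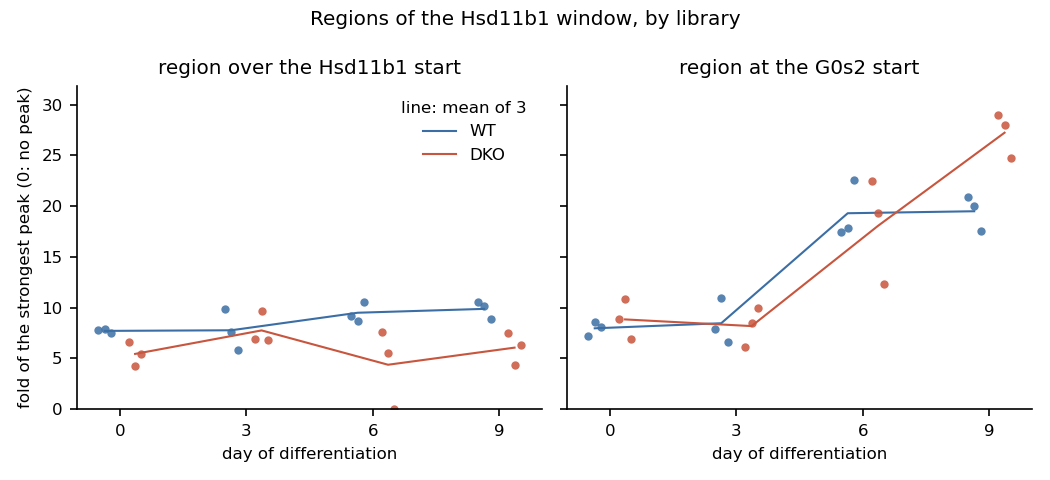
Fold of the strongest peak at the start of Hsd11b1 and at the start of its neighbour G0s2 (fold over local background, linear axis from 0), by day, with 1 point per library (0 where there was no peak) and a line through the means of 3. The G0s2 region has a median fold of 8.17 at day 3 and 18.6 at day 6, while the Hsd11b1 region has 7.21 and 8.15.

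Glul encodes glutamine synthetase and lies on chromosome 1 (153899944 to 153909723, plus strand). Its day 0 lengths were 2.54, 2.40 and 2.40 kb (WT) and 2.81, 4.52 and 3.05 kb (DKO), and its day 3 lengths were 4.25, 4.51 and 3.63 kb (WT) and 3.48, 3.83 and 3.42 kb (DKO). The day 0 value of 4.52 kb came from the wide-peak library, and the other 5 lay below every day 3 value. Days 6 and 9 ran from 3.95 to 7.66 kb and from 6.25 to 8.35 kb. The steps were +0.899 kb to day 3 (exact permutation test, p = 0.055, adjusted p = 0.121) and +2.23 kb to day 6 (exact p = 0.005, adjusted p = 0.0571). Without the wide-peak library the first step was +1.16 kb and passed (adjusted p = 0.0239, exact permutation test), in a comparison in which 2.59% of all tested genes rose and 23.5% fell. The region over the start, with the printed Glul element, had a median fold of 17.2, 17.2, 18.5 and 28.7, and the upstream region (chr1:153892631-153896079) had 3.80, 5.74, 8.78 and 10.6.

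After the dexamethasone medium had been replaced by maintenance medium, the mean lengths at Fkbp5, Tsc22d3, Errfi1 and Glul over both genotypes stood at or above 1.97 times their day 0 means on days 6 and 9. Within WT the ratios at day 6 ran from 2.68 (Errfi1) to 5.13 (Tsc22d3). Within DKO they were lower, at 1.404 for Errfi1, 1.47 for Glul, 1.92 for Fkbp5 and 2.41 for Tsc22d3, with the wide-peak library among the day 0 values, and at day 9 they ran from 2.21 (Errfi1) to 4.90 (Tsc22d3). From day 3 to day 6, 6 of the 8 members had a higher and 2 a lower mean, with a median difference of +2.45 kb against +0.0913 kb over all tested genes. At an unadjusted exact p under 0.05 there were 4 members (Nr3c1 +5.06, Hsd11b1 +4.05, Tsc22d3 +2.68 and Glul +2.23 kb), as were 25.1% of all tested genes, and no gene passed after adjustment. From day 6 to day 9, 7 of 8 had a higher mean, 2 had an unadjusted exact p under 0.05 (Fkbp5 and Errfi1) against 31.7% of all genes, and again no gene passed. The smallest p of the exact permutation test, 0.005 at each step, adjusted to 0.0225 from day 0 to day 3. It adjusted to 0.0571 from day 3 to day 6 and to 0.05 from day 6 to day 9. The adjusted value depends on how many genes reach that p, so passing at 1 step and not at another does not compare the sizes of the changes. From day 0 to day 3 the median member difference was +0.0927 kb against −0.429 kb over all genes. Longer windows and longer acetylated stretches allow larger differences in kb, and genes of equal length were not compared in these medians. Per Mb of covered length, 4 members rose from day 3 to day 6 (Nr3c1 +0.126, Hsd11b1 +0.0816, Tsc22d3 +0.0495 and Glul +0.0460 kb per Mb, each adjusted p = 0.0294 by the exact permutation test), where 10.8% of all tested genes rose and 10.1% fell. On the same scale 1, Nr3c1, was lower at day 9 than at day 6 (−0.101 kb per Mb, exact permutation test, adjusted p = 0.0343), where 7.75% of all rose and 6.85% fell. On that scale Nr3c1 held 0.162, 0.165, 0.291 and 0.190 kb per Mb at days 0, 3, 6 and 9, so its low value at day 3 was not below day 0. Against the other days, Sgk1 (+0.0418) and Dusp1 (+0.112 kb per Mb) were higher at day 3 on that scale and Nr3c1 was not called, and the split over all genes went from 36 higher and 513 lower to 980 and 572 (6.29% and 3.67%).

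No member differed between DKO and WT over the 4 days past the threshold. DKO minus WT was between −1.51 kb (Errfi1, exact p = 0.109 by permutation of genotype within day) and +0.0356 kb (Nr3c1), lower in 7 of 8 members, with a median of −0.749 kb against −0.00808 kb over all genes. These medians in kb are not of genes of equal length. No member had an unadjusted p under 0.05, where 10.1% of all tested genes did, and 0.0193% of genes were called higher and 0.109% lower in DKO. Whether the day 3 difference itself depended on genotype was tested as an interaction, which no gene passed (smallest adjusted p 0.788); no member had an unadjusted p under 0.05 against 5.58% of all genes. By other measures 1 member each was called: the highest fold at Sgk1 was lower in DKO by 4.93 (exact p = 0.00105, adjusted p = 0.0340), a measure on which 5.00% of all tested genes were called lower and 0.283% higher, and Fkbp5 per Mb of covered length was higher by 0.105 kb (exact p = 8.75e-05, adjusted p = 0.00353), a scale on which 1568 genes were higher and 963 lower (10.1% and 6.18%) in place of 3 and 17.

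The genotypes parted at single days, in opposite directions. With 3 libraries against 3 an exact test cannot go below p = 0.1, so a gene is described by whether the groups overlap. At day 0 every DKO value lay above every WT value at Sgk1 and Glul, as at 19.2% of all tested genes, and none of the 8 lay below (0.719% of genes). At day 3 the groups overlapped at all 8, where 0.771% of genes lay above and 10.6% below. At day 6 all 8 lay below WT, as did 61.1% of genes, against 0.0642% above; Fkbp5, for example, had a mean of 34.5 kb in DKO and 50.5 kb in WT. At day 9 DKO lay above WT at Nr3c1, Fkbp5, Tsc22d3, Dusp1 and Hsd11b1 (30.3% of genes) and below at none (2.08% of genes), with Fkbp5 at 65.0 kb in DKO and 53.0 kb in WT.

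The day 6 direction depends on the scale. DKO day 6 libraries covered the least genome, and per Mb of covered length 5 members (Nr3c1, Fkbp5, Dusp1, Errfi1 and Glul) lay above WT at day 6, as did 37.6% of genes, while Sgk1 and Hsd11b1 stayed below, as did 14.6%. The DKO to WT ratio at day 6 was 0.684 for Fkbp5 in kb and 1.28 per Mb, and 0.850 and 1.64 for Nr3c1. For Sgk1 it was 0.457 and 0.862, and for Hsd11b1 0.477 and 0.884. At day 9 the ratio for Fkbp5 was 1.22 in kb and 1.05 per Mb, for Tsc22d3 1.42 and 1.23, and for Sgk1 1.01 and 0.863. Tsc22d3 was above WT on both scales at day 9.

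**Figure D5:**
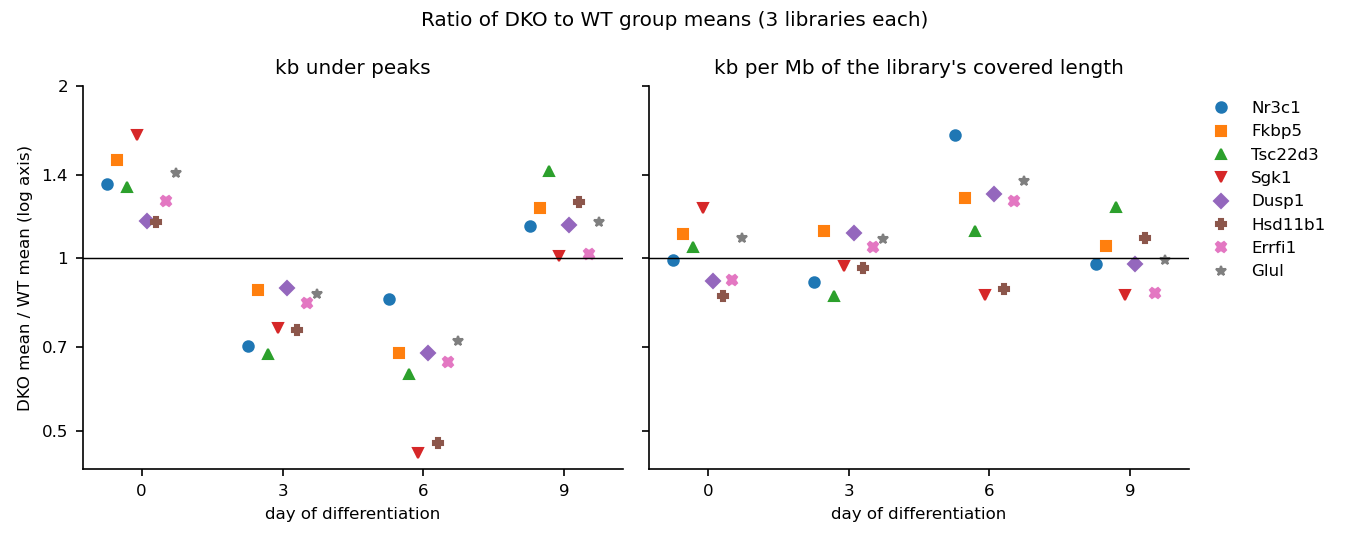
Ratio of the DKO mean to the WT mean for each of the 8 genes at each day, from kb under peaks and from kb per Mb of the library's covered length (ratio, log axis, line at 1). At day 6 the ratios in kb lie between 0.457 and 0.850, and those per Mb lie on both sides of 1, up to 1.64 for Nr3c1.

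The wider pathway was read from 3 lists. Of 5 genes of receptor and steroid handling, such as the mineralocorticoid receptor gene Nr3c2, none was called in any of the 6 comparisons. Of 12 chaperones and coregulators, 1 fell from day 0 to day 3, the HSP90 cochaperone gene Stip1 (−0.767 kb, adjusted p = 0.0365, exact permutation test), and 10 of 12 had a lower mean, with a median of −0.733 kb against −0.429 kb over all genes. Genes of equal length were not compared for this median. Of 21 further glucocorticoid-responsive genes 19 were tested, and from day 0 to day 3 4 rose and 1 fell (exact permutation tests adjusted over all genes). Both lists are to be read against the 1.58% of all tested genes that rose and the 29.6% that fell in that interval. The 4 were Zbtb16 (+37.1 kb), a transcription factor gene, Ddit4 (+2.09 kb), which encodes an mTORC1 inhibitor, the metallothionein gene Mt1 (+1.74 kb) and Lcn2 (+0.798 kb), which encodes a secreted lipocalin. Cdkn1a, the p21 cell cycle inhibitor gene, fell by 2.95 kb. In WT the Zbtb16 mean was 1.08 ± 0.245, 42.9 ± 9.08 and 93.3 ± 8.43 kb on days 0, 3 and 9, and in DKO it was 2.58 ± 1.15, 35.0 ± 6.09 and 113 ± 3.07 kb (SD, n = 3 each). Its length at day 9 stood above that at day 3, as did the length of Fkbp5. Per Mb of covered length, however, Fkbp5 held 0.936 kb at day 3 and 0.983 kb at day 9. None of the 19 was called in the other comparisons.

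The genes whose kb per Mb varied most like a member's over the 24 libraries were named as a description, since these points share days and library totals. For Fkbp5 they were Micall1 (Pearson r = 0.982), Ascc1 (r = 0.966) and Peli2 (r = 0.966). For Nr3c1 they were Txlna (r = 0.950), Ginm1 (r = 0.949) and Tcim (r = 0.944).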

How the data were processed

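The authors aligned single-end reads to mm10 with BWA 07.17 after trimming with cutadapt 1.18 and called narrow peaks in each library with MACS2 2.1.1.20160309. Replicates were not pooled, and which of the 16 inputs (not analysed here) was the control of a list is not given in the sources used here. The deposited lists give a fold ratio at each summit and −log10 of p and q values, all made by the authors, and an integer score that was not used; the number of reads is not used here, so no peak means none past the caller's threshold.

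Groups came from the labels. Peaks were joined within a library and their length summed over each protein-coding gene's GENCODE M21 span with 10 kb upstream. Differences of means were tested by exact permutation of libraries (two-sided, within day or genotype) with Benjamini-Hochberg adjustment over 15571 genes at 0.05, in Python 3.11.15 with numpy 2.4.6. The test was checked on simulated data. The members, the pathway and marker lists and the rules were chosen with earlier results of these data known. All 8 members are named; genes of other lists are named where past the threshold, up to 5 a direction. A gene of the chaperone and coregulator list is not reported here and was left out of its counts. Promoters came from RefSeq (mm10) and sequence was read with pysam 0.24.0. Replicate numbers did not pair libraries (12 correlations of deviations, −0.10 to 0.187).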

Additional observations from a re-analysis of the deposited data

Results flagged for a closer look

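The genotype difference in kb under peaks turned between day 6 and day 9 at 5 of the 8 genes, with each DKO library below each WT library at day 6 and above at day 9. DKO minus WT at day 9 minus that at day 6 was 27.9 kb at Fkbp5 (from −15.95 to +11.95), 10.85 kb at Dusp1, 6.731 kb at Hsd11b1, 6.456 kb at Tsc22d3 and 3.379 kb at Nr3c1, each with an exact p = 0.005 from 400 relabellings of genotype within the days and an adjusted p = 0.0288. The test was added after the data were seen. It called 31.66% of all tested genes, so the turn is not particular to these loci. Covered length turned in the same way, from 30.8 Mb in DKO and 57.5 Mb in WT at day 6 to 64.5 and 55.5 Mb at day 9, and per Mb of covered length 0 genes of all passed this test (Fkbp5 −0.194 kb per Mb, exact p = 0.095; Errfi1 −0.110, exact p = 0.005, adjusted p = 0.0793).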

How the results depend on the processing

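The counts below are members called, of 8, and where a cause is not given it was not tested. For the genotype difference over 4 days, 0 became 1 with highest fold and 1 per Mb of covered length, and leaving out replicates or libraries gave 0 to 0. For day 3 against the other days, 1 became 0 with −log10 q of at least 5, with the 20000 strongest peaks, with 250 bp either side of summits (Nr3c1 +0.9167 kb, reversed), with highest fold, with q rank and with no filter on genes, and 2 per Mb; leaving out replicates or libraries gave 0 to 2. Leaving out WT day 3 replicate 3, any DKO day 3, WT day 6 or DKO day 9 replicate, or WT day 9 replicate 2 or 3 ended the Nr3c1 call. With the replicate block 0 members were called in this comparison (Nr3c1 adjusted p = 0.0698, exact permutation), for the genotype difference and for the interaction; the numbers do not pair the libraries. For the step from day 0 to 3, 3 became 0 with the 20000 strongest peaks, 0 with summits (Errfi1 −0.1125 kb, reversed), 0 with highest fold, 1 with q rank (Tsc22d3 −0.6148 points, reversed) and 6 per Mb; leaving out libraries gave 0 to 4, and leaving out a whole replicate number allows no p under 0.0556. For the step from day 3 to 6, 0 became 4 per Mb and 3 without WT day 3 replicate 3 and DKO day 0 replicate 2. Without those libraries 958 of 15571 genes were called higher and 826 lower across that step, against 0 and 0 with all libraries. For day 6 to 9, 0 became 1 per Mb. The interaction stayed at 0 in every setting run.

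Counts of members whose groups did not overlap at a day are given here with the share of all tested genes. Per Mb they moved to 1 above at day 0 (11.5%), and to 1 above (12.4%) and 1 below (7.82%) at day 3. At day 6 they were 5 above (37.6%) and 2 below (14.6%), and at day 9 1 above (13.8%) and 2 below (13.5%). With the 20000 strongest peaks 12459 genes were tested, and the genes of all that parted in the same way are given in brackets. The members were 0 above at day 0 (2062 genes) and 1 below at day 3 (1318 genes). They were 5 below at day 6 (4590 genes) and 3 above at day 9 (2490 genes). Over all genes, calls for the step from day 0 to 3 ran from 246 higher and 4612 lower to 0 and 0 with the 20000 strongest peaks, summits or highest fold. They were also 0 and 0 without DKO day 3 replicate 1 and without DKO day 3 replicate 3.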
